A study of Homo sapiens with 6 samples.

Results

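The genes that carry glucose through glycolysis and the pentose phosphate pathway were examined in HUDEP-2 cells after knockdown of MEN1. The set was chosen by gene symbol and holds 36 of the 62754 genes in the deposited tables. It covers glucose and lactate transporters, the enzymes of glycolysis, the shunt that makes 2,3-bisphosphoglycerate, and the pentose phosphate enzymes. HUDEP-2 is an immortalised human erythroid progenitor line. All groups shared the growth medium, StemSpan SFEM, to which 1 µg/ml doxycycline, 1e-06 M dexamethasone, 3 units/ml EPO and 50 ng/ml SCF had been added. The cells received a lentiviral shRNA, either the hairpin labelled MEN1sh2 (3 libraries, genotype given as MEN1 knockdown) or a non-targeting control hairpin (3 libraries, genotype given as WT). Puromycin at 2 µg per ml was added at 24 h after infection and kept for 48 h, and RNA was profiled at 72 h. One hairpin against MEN1 was used here, so its on-target and off-target effects cannot be told apart. The labels call the libraries biological replicates but do not say that they came from separate cultures, so the p-values measure the spread between these samples, which may be technical.

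Red cells have no mitochondria when mature, and glycolysis is then their only source of ATP. A side branch of the pathway, run by BPGM, makes 2,3-bisphosphoglycerate, the metabolite that lowers the oxygen affinity of hemoglobin. The pentose phosphate pathway supplies NADPH, which keeps glutathione reduced, and ribose phosphate for nucleotides. Erythroid cells use tissue-specific forms of some enzymes, above all the R-type pyruvate kinase encoded by PKLR. Proliferating cells in contrast usually rely on HK2, LDHA and PKM.

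Values are TPM, a relative transcript abundance whose total is the same in every library. They are scaled for gene length and library size. The order of levels between genes can differ when coverage per base is used in place of TPM, as given below for PKM and PKLR and for the lactate carriers. The total of aligned bases inferred from the deposited coverage ran from 5565 to 10811 megabases per library. MEN1 itself was at 6.29, 6.44 and 6.88 TPM in the MEN1 shRNA libraries and at 41.2, 39.6 and 37.1 TPM in the controls, and no library went against its label. The erythroid markers were abundant: their summed TPM ran from 55168 to 60997 with the MEN1 shRNA and from 32670 to 38213 in the controls, and 7 of 10 were higher and 0 lower by the test used below, where 22.1% of all tested genes were higher and 31.5% lower. Of the maturation markers 9 of 11 were higher and 1, TRIM58, was lower, with summed TPM of 6611 to 6994 against 3075 to 3208. Of 6 progenitor markers tested, 5 were lower, with summed TPM of 343 to 389 against 798 to 859; CD34 and FLI1 stayed under 1 TPM. Of 6 megakaryocyte markers, PF4 and PPBP were at 0 in every library, GP9, GP1BA and VWF stayed under 1 TPM, and ITGA2B was lower (18.6 ± 2.35 against 33.8 ± 2.44 TPM, adjusted p 0.000456 in limma). Of 6 myeloid markers, MPO, ELANE, CD14, CSF1R and ITGAM stayed under 1 TPM, and LYZ was lower, at 0.151 to 0.268 TPM against 1.27 to 1.67 TPM (adjusted p 0.00116). All 5 lymphoid markers stayed under 1 TPM. Of 5 mast cell and basophil markers, CPA3 and HDC stayed under 1 TPM, MS4A2 was at 0.899 ± 0.198 against 1.62 ± 0.827 TPM and did not pass, and the tryptase genes TPSAB1 and TPSB2 were lower, from 644 ± 90.7 to 448 ± 47.4 and from 496 ± 53.2 to 329.8 ± 43.7 TPM. These 5 markers summed to 725 to 885 TPM in the knockdown libraries and to 1037 to 1307 in the controls. Globin genes took 9.21% to 10.4% of all TPM in the knockdown libraries and 5.23% to 5.78% in the controls. These differences move with every result that follows, and their part in the results was not tested. In bulk RNA, fewer cells of a type and less RNA per cell cannot be told apart.

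Most of the pathway's genes changed, and more fell than rose. Of the 36 genes, 34 reached 1 TPM in at least 3 libraries and were tested with limma, a linear model on log2(TPM + 1) fitted across 14294 genes with Benjamini-Hochberg adjustment, called at an adjusted p under 0.05. HK3, the hexokinase of white blood cells, was listed at 0 in 5 libraries and at 0.00633 TPM in control replicate 3. PGM1, which interconverts glucose 1-phosphate and glucose 6-phosphate, stayed between 0.0607 and 0.406 TPM, so neither was tested. Of the 34 tested, 24 passed (70.6%), against 53.6% of all genes tested. Lower with the MEN1 shRNA were 17 (50%), where the background is 31.5%, and higher were 7 (20.6%), where it is 22.1%. A change of at least 2-fold was met by 10 (29.4%, background 11.9%), 3 of them higher (background 4.96%) and 7 lower (background 6.9%). The groups did not overlap in 26 of the 34 (76.5%, background 61.8%), with the MEN1 shRNA above in 9 (background 25.8%) and below in 17 (background 35.9%). The median log2 fold change (log2 change below) of the 34 was -0.29, beside -0.07 over all tested genes. All 34 also had a mean TPM of 5 or more, a level that many of the 14294 genes did not reach. A separate fit of the 10188 genes at that level passed 6345 of them, with a median log2 change of -0.10. In that fit 25 of the 34 passed, 7 higher and 18 lower. The balance between directions moved with the scaling: median-of-ratios scaling called 9 higher and 13 lower, so that the share of calls that were higher went from 29.2% to 40.9%, and TPM rescaled without globin and mitochondrial genes called 9 and 14 (39.1%). Over all tested genes the main fit called 3158 higher and 4499 lower. These scalings also moved the median log2 change of all tested genes, from -0.07 to 0.0078 and to -0.0097. Calls over all tested genes were not split by direction under these scalings. Whether the move in the share of higher calls was particular to this pathway was therefore not tested.

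**Figure D1:**
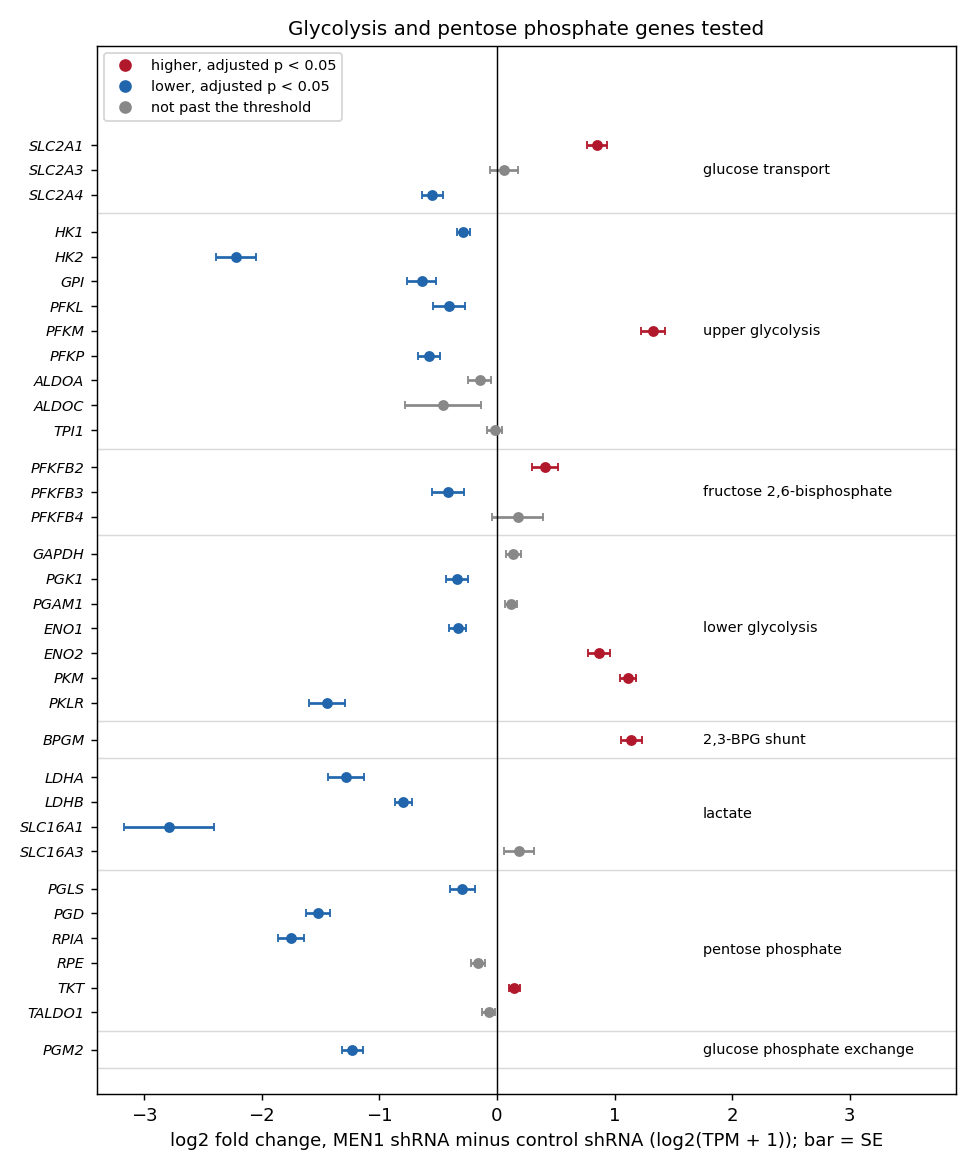
Log2 change (MEN1 shRNA minus control shRNA, horizontal axis) with its SE for the 34 tested genes, ordered by place in the pathway; red and blue points passed an adjusted p of 0.05 in limma and grey points did not. SLC16A1 has the lowest value (-2.79) and PFKM the highest (1.33), and PKM and PKLR lie on opposite sides of 0.

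MEN1 shRNA replicate 1 lay closest to the controls for many of these genes. This held for 16 of the 17 genes that fell and for 4 of the 7 that rose, on the log2(TPM + 1) scale. Among all 7657 genes past the threshold, both directions together, it held for 65.1%. The MEN1 level of this replicate was 6.29 TPM, the lowest of its group (6.44 and 6.88 TPM in replicates 2 and 3). Why it lay closest to the controls was not tested. Without this library 27 of the 34 genes passed, 9 higher and 18 lower, and of all 14294 tested genes 7542 passed.

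Promoter sequences are shown for 6 genes on which the results turn: both pyruvate kinase genes, which moved in opposite directions, LDHA and PGD among the falls, and PFKM and BPGM among the rises. Each is the run of 200 bases before the RefSeq start in GRCh38.p14, printed 5′ to 3′ on the gene's own strand. Capitals mark matches on either strand to 4 short motifs. One is ACGTG, the core of sites bound by hypoxia-inducible factors. The E-box of MYC-type factors, written CACGTG, contains that core. For the erythroid factor family of GATA1 the motif AGATAA was searched. The last, CCNCNCCC, is a loose form of the boxes bound by SP and KLF factors.
PKLR promoter, chr1:155301439-155301638, minus strand: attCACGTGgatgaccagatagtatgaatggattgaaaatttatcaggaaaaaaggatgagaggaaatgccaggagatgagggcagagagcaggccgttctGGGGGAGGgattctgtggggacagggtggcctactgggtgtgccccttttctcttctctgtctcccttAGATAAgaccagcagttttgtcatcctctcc
PKM promoter, chr15:72231191-72231390, minus strand: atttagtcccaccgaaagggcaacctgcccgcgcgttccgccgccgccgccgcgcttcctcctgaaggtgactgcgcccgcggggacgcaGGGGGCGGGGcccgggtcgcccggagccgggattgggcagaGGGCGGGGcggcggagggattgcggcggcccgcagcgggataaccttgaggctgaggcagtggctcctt
LDHA promoter, chr11:18394363-18394562, plus strand: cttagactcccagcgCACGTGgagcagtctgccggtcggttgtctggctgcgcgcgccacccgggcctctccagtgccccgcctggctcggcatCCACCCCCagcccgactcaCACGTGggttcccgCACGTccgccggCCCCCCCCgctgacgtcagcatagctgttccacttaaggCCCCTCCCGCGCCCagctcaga
PGD promoter, chr1:10398864-10399063, plus strand: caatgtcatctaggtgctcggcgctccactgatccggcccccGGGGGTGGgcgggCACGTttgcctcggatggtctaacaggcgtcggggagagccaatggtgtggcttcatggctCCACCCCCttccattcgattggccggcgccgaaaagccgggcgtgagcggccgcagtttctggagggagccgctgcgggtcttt
PFKM promoter, chr12:48105673-48105872, plus strand: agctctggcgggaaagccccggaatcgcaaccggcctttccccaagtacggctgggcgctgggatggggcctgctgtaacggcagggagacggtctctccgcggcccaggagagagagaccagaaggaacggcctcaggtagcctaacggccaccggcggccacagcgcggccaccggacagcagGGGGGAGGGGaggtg
BPGM promoter, chr7:134646653-134646852, plus strand: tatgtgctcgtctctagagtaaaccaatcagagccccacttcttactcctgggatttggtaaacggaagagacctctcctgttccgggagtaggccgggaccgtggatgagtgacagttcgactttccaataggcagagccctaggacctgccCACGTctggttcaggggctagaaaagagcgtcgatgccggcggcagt

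The PKLR promoter has an AGATAA that starts 31 bases before the gene's start and a CACGTG that starts 197 bases before it. LDHA holds CACGTG at 185 and at 87 bases before its start, and PGD holds ACGTG on the opposite strand at 145. PKM and PFKM show only CCNCNCCC in this window. Counts were made over the full RefSeq window, 250 bases before to 50 after the start, which was found for 32 of the 36 genes (not for SLC2A3, SLC2A4, PFKFB2 and SLC16A1). ACGTG was present in 12 of these 32 and in 21.4% of all 35116 promoters in the table. It was present in 7 of 15 genes that fell and in 2 of 6 that rose. CACGTG was in 5 of 32 (PKLR, LDHA, PGM2, ALDOC and GAPDH) against 7.26% of all promoters, AGATAA in 2 (PKLR and PGAM1) against 10.3%, and CCNCNCCC in 27 against 56.2%. These are matches of letters, not measured binding sites.

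Glucose uptake came first. SLC2A1 encodes GLUT1, the main glucose carrier of human red cells (ENSG00000117394, chromosome 1, 42925353 to 42958893, minus strand; all coordinates are hg38, as deposited). It was at 246, 275 and 292 TPM in the knockdown libraries and at 162, 149 and 139 TPM in the controls. All 3 knockdown libraries were above all 3 controls. SLC2A1 rose from 149.9 ± 11.3 to 271 ± 23.4 TPM (SD, n = 3 each; log2 change 0.85, SE 0.0836, adjusted p 0.000148 in limma). SLC2A4, the insulin-responsive carrier of muscle and fat, was at 8.58, 9.30 and 9.60 TPM against 12.8, 14.4 and 14.4 TPM and fell (log2 change -0.55, adjusted p 0.0017 in limma). SLC2A3, the neuronal-type carrier GLUT3, did not pass (17.0 ± 0.696 against 16.4 ± 2.79 TPM, log2 change 0.06), and its sign turned without control replicate 1 or 3. SLC2A1 made up 91.2% ± 0.426 of the summed TPM of the 3 carriers in the knockdown and 83.2% ± 2.08 in the controls.

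Hexokinase traps glucose in the cell as glucose 6-phosphate. HK1, which carries most of this activity in red cells, was the dominant form, at 542, 505 and 528 TPM in the knockdown libraries and 652, 608 and 661 TPM in the controls. It fell to 82.0% of the control level (log2 change -0.29, SE 0.0571, adjusted p 0.00403 in limma). HK2, the form typical of growing cells (ENSG00000159399, chromosome 2, 74834127 to 74893359), was at 7.11, 4.53 and 4.68 TPM against 27.4, 33.5 and 25.2 TPM. All 3 knockdown libraries were far below all 3 controls, and 19.0% of the control level remained (log2 change -2.22, SE 0.173, adjusted p 6.23e-05 in limma). The share of HK2 in hexokinase TPM went from 4.31% ± 0.806 to 1.02% ± 0.238. Measured by coverage per base in place of TPM, these shares were 8.83% ± 1.48 and 2.19% ± 0.535. GPI, which turns glucose 6-phosphate into fructose 6-phosphate, fell from 266 ± 9.74 to 172 ± 32.3 TPM (log2 change -0.64, adjusted p 0.00329 in limma). It was spread in the knockdown libraries, at 207, 143 and 166 TPM, all below the controls at 256 to 275 TPM.

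Phosphofructokinase, the main control point of glycolysis, is built from 3 subunit genes, and these moved apart. PFKM, the muscle-type subunit (ENSG00000152556, chromosome 12, 48105139 to 48146404), was at 45.01, 55.4 and 53.6 TPM in the knockdown libraries and at 20.4, 17.9 and 21.1 TPM in the controls. The groups were well apart, and PFKM rose to 2.59 times the control level (log2 change 1.33, SE 0.102, adjusted p 5.99e-05 in limma). PFKP, the platelet-type subunit, fell from 99.6 ± 3.00 to 66.7 ± 8.49 TPM (log2 change -0.58, adjusted p 0.00136 in limma). PFKL, the liver-type subunit and the most abundant of the 3, fell from 170 ± 10.7 to 129 ± 24.6 TPM (log2 change -0.41, adjusted p 0.0362 in limma). That call was lost with median-of-ratios scaling (adjusted p 0.0746), with globin- and mitochondria-free TPM (0.0664), without a filter on low values (0.128) and without control replicate 1, 2 or 3 in turn (0.0529, 0.105 and 0.083). The share of PFKM in phosphofructokinase TPM was 16.7%, 25.7% and 20.9% in the knockdown and 7.31%, 6.00% and 7.33% in the controls. By coverage per base the mean shares were 10.3% ± 1.66 and 3.46% ± 0.350, so the difference was 6.81 in place of 14.2 percentage points. The summed TPM of the 3 genes was 247 ± 27.9 against 289 ± 9.72, with no overlap between the groups.

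The PFKFB enzymes make and remove fructose 2,6-bisphosphate, the activator of phosphofructokinase. PFKFB2 rose from 6.24 ± 0.159 to 8.63 ± 1.03 TPM (log2 change 0.41, adjusted p 0.0163 in limma), a call lost without MEN1 shRNA replicate 3 (adjusted p 0.0566). YOD1, a gene on the opposite strand that overlaps PFKFB2, went from 24.0 to 28.5 TPM in the controls to 59.2 to 81.0 TPM. Use of strand in the counting is not stated, so reads of this pair cannot be told apart. PFKFB3 fell from 8.46 ± 1.21 to 6.08 ± 0.724 TPM (log2 change -0.42, adjusted p 0.0307 in limma). Its adjusted p passed 0.05 without MEN1 shRNA replicate 2 (0.0581) or 3 (0.0932) and without control replicate 2 (0.101) or 3 (0.0544), and likewise with median-of-ratios scaling (0.058), globin- and mitochondria-free TPM (0.0561), quantile normalization (0.0696) or no filter on low values (0.0833). PFKFB4 did not pass (17.8 ± 1.66 against 16.2 ± 5.98 TPM). Control replicate 2, at 23.1 TPM, lay above all other libraries for this gene, and without it the log2 change was 0.45 (adjusted p 0.0151).

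No gene of the aldolase and triose phosphate steps passed the threshold in the main fit. ALDOA, the main aldolase of red cells, was at 1188 ± 102 TPM in the knockdown libraries and 1316 ± 140 TPM in the controls and did not pass (adjusted p 0.242 in limma). ALDOC, the brain-type aldolase, was at 42.3, 16.7 and 26.8 TPM against 34.1, 50.1 and 29.9 TPM, with overlapping groups (adjusted p 0.265). Leaving out MEN1 shRNA replicate 1 gave a log2 change of -0.78 (adjusted p 0.0466). TPI1, triose phosphate isomerase, was at 704 ± 49.7 and 712 ± 13.7 TPM, with a log2 change of -0.02 (SE 0.0633) whose sign turned under FPKM, under median-of-ratios scaling, under globin- and mitochondria-free TPM, and without MEN1 shRNA replicate 2 or 3.

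**Figure D2:**
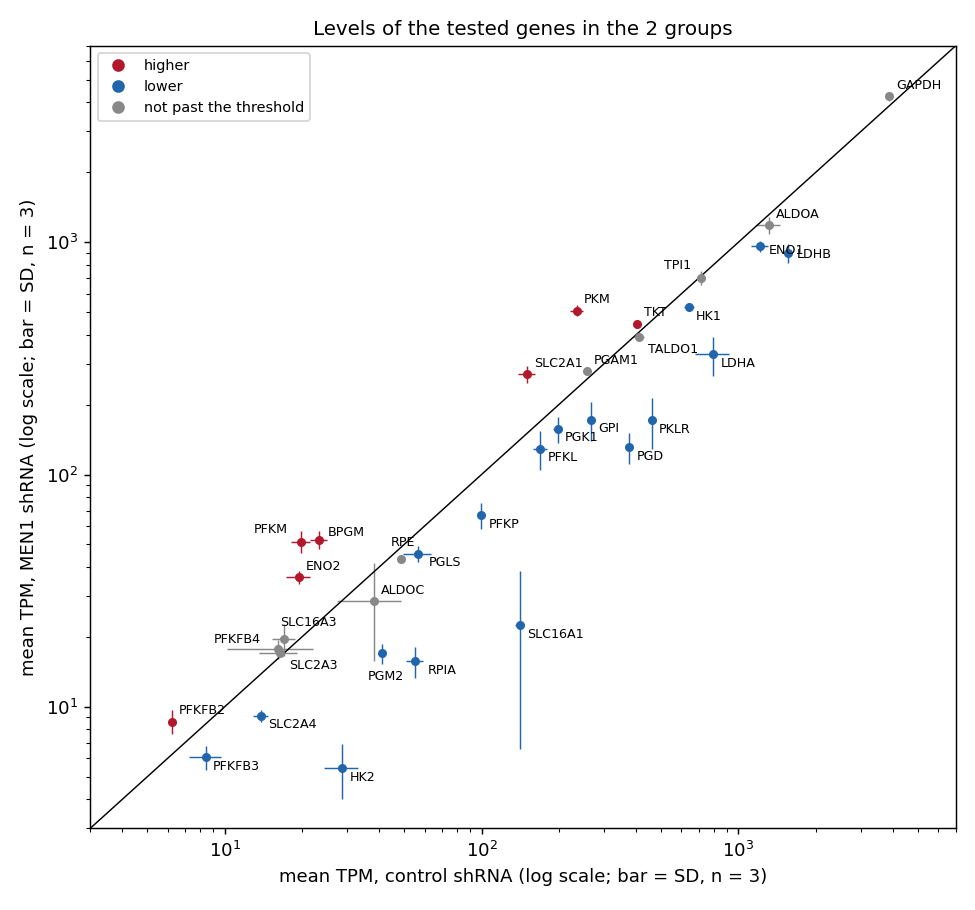
Mean TPM with the MEN1 shRNA (vertical axis) against mean TPM in the controls (horizontal axis), both on log scales with SD bars (n = 3 each), for the 34 tested genes; the line marks equal levels. GAPDH is the most abundant of them, and SLC16A1, HK2, RPIA and PGD lie furthest below the line.

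Among the tested genes, mean control levels ran from 6.24 TPM for PFKFB2 to 3862 TPM for GAPDH. GAPDH, which makes the first high-energy intermediate and NADH, was at 4429, 4060 and 4289 TPM in the knockdown libraries and at 3811, 3975 and 3800 TPM in the controls. Its groups did not overlap, but it did not pass (log2 change 0.14, adjusted p 0.0887 in limma). GAPDH did pass with FPKM (adjusted p 0.0499), with median-of-ratios scaling (log2 change 0.23, adjusted p 0.0244), globin- and mitochondria-free TPM (0.0224) and with quantile normalization (0.37, adjusted p 0.000652). PGK1, the first ATP-forming enzyme, fell from 198 ± 7.77 to 157 ± 20.3 TPM (log2 change -0.34, adjusted p 0.0178), a call lost without control replicate 2 (0.0602), without a filter on low values (0.0663) and with median-of-ratios scaling (0.0517).

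BPGM and PGAM1 are related mutases that act on the same 3-carbon phosphates. BPGM makes 2,3-bisphosphoglycerate (ENSG00000172331, chromosome 7, 134646811 to 134679816) and was at 48.9, 57.5 and 50.9 TPM in the knockdown libraries and at 25.0, 21.5 and 23.2 TPM in the controls. The groups did not overlap, and BPGM rose to 2.26 times the control level (log2 change 1.14, SE 0.0890, adjusted p 6.23e-05 in limma). PGAM1, the glycolytic mutase, was at 279 ± 10.2 and 257 ± 5.56 TPM and did not pass (log2 change 0.12, adjusted p 0.0927); it passed with median-of-ratios scaling (0.00972), FPKM (0.0362) and globin- and mitochondria-free TPM (0.0172), and without MEN1 shRNA replicate 1 (0.0462). The ratio of BPGM to PGAM1 TPM was 0.182, 0.205 and 0.177 in the knockdown and 0.0996, 0.0818 and 0.0902 in the controls. MINPP1, a phosphatase that can also remove 2,3-bisphosphoglycerate, rose from 212 ± 5.72 to 249.6 ± 8.59 TPM (log2 change 0.23, adjusted p 0.0071), a gene named after its value was seen.

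The enolase genes moved in opposite directions. ENO1, the widely expressed form, fell from 1211 ± 91.5 to 960.1 ± 53.3 TPM (log2 change -0.33, SE 0.0741, adjusted p 0.00658 in limma). ENO2, the neuron-type form, was at 37.5, 33.4 and 37.5 TPM against 19.2, 21.5 and 17.5 TPM and rose (log2 change 0.87, SE 0.0950, adjusted p 0.000235). ENO2 remained a minor form, at 3.63% ± 0.174 of enolase TPM against 1.59% ± 0.284.

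Pyruvate kinase, the last ATP-forming step, showed opposite changes in its paralogs. PKLR (ENSG00000143627, chromosome 1, 155289293 to 155301438, minus strand), source of the red cell R-type enzyme, was at 220, 144 and 150.2 TPM in the knockdown libraries and at 473, 444 and 465 TPM in the controls. PKLR fell to 37.3% of the control level (log2 change -1.45, SE 0.150, adjusted p 0.000183 in limma). PKM (ENSG00000067225, chromosome 15, 72199029 to 72231819, minus strand), source of the M1 and M2 enzymes of other tissues and growing cells, was at 493, 489.7 and 541 TPM against 224, 251 and 229 TPM. It rose to 2.17 times the control level (log2 change 1.11, SE 0.0673, adjusted p 2.95e-05). For both genes the groups were well apart, in opposite directions. The summed TPM of the pair was 680 ± 41.2 in the knockdown and 695 ± 1.66 in the controls, with overlapping groups. This near-equal sum was seen in TPM. By coverage per base PKLR, the gene that fell, was the larger of the pair in every library. Its share by coverage was 93.4% ± 0.573 in the controls and 70.1% ± 5.15 in the knockdown. The sum was not compared on that measure, so an unchanged total of pyruvate kinase transcripts cannot be read from these values.

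PKM made up 69.1%, 77.2% and 78.3% of pyruvate kinase TPM in the knockdown libraries and 32.1%, 36.1% and 33.0% in the controls, a difference of 41.2 percentage points. By coverage per base its share was lower in every library, 29.9% ± 5.15 in the knockdown and 6.63% ± 0.573 in the controls. The direction was the same on both measures, but which gene was the more abundant with the MEN1 shRNA was not: PKM by TPM and PKLR by coverage. Gene-level values do not separate the M1 and M2 transcripts of PKM or the R and L transcripts of PKLR.

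**Figure D3:**
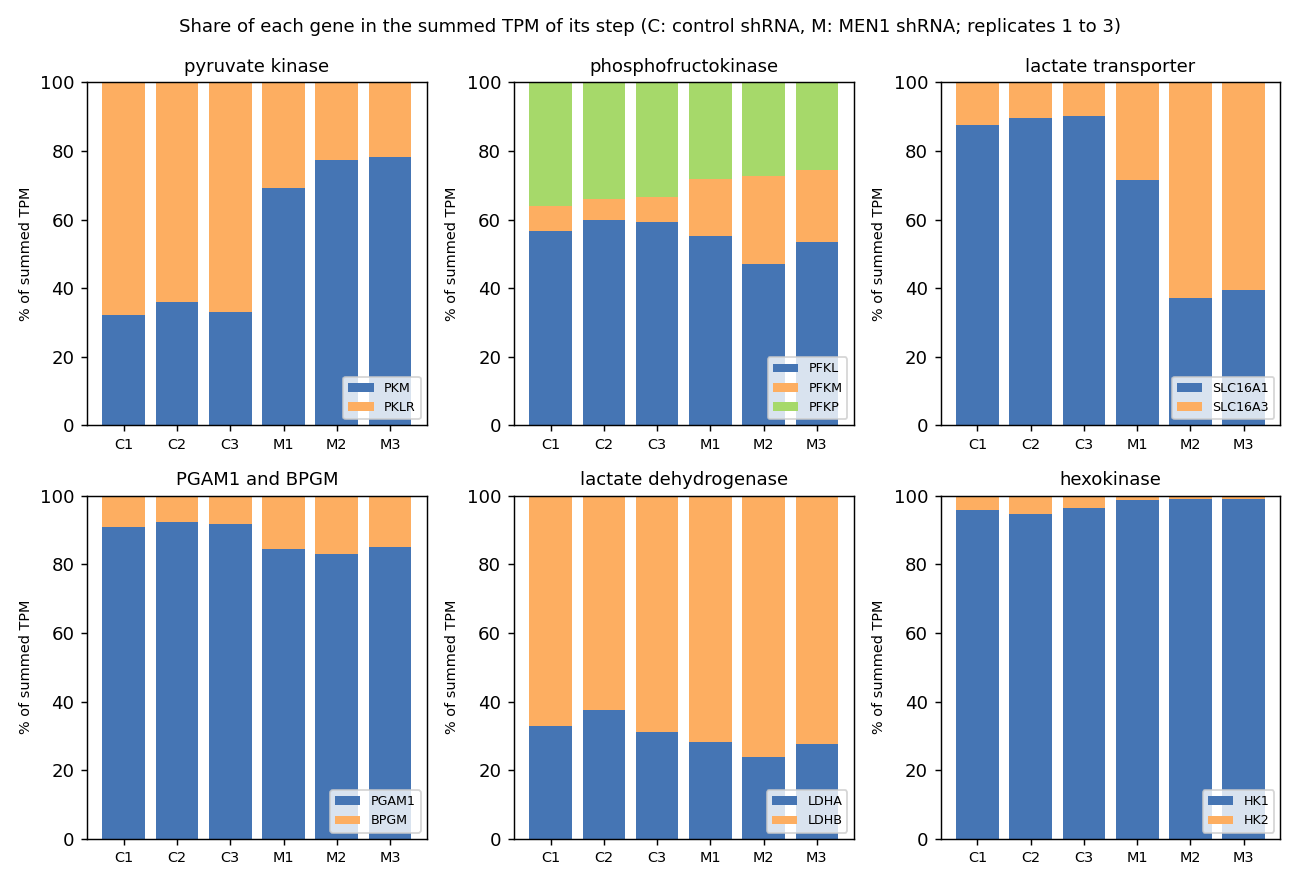
Share of each gene in the summed TPM of its step (vertical axis, percent) in each library (C1 to C3, control shRNA; M1 to M3, MEN1 shRNA replicates); HK3 is left out, as it was at or near 0. PKM goes from 32.1% to 36.1% of pyruvate kinase TPM in the controls to 69.1% to 78.3%, and the SLC16A1 bar is higher in MEN1 shRNA replicate 1 than in replicates 2 and 3.

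Genes for making and moving lactate were mostly lower. LDHA (ENSG00000134333, chromosome 11, 18394560 to 18408425), the lactate dehydrogenase subunit favoured in cells that make lactate, was at 394, 268 and 326 TPM in the knockdown libraries and at 739, 935 and 720.3 TPM in the controls. LDHA fell to 41.2% of the control level (log2 change -1.28, SE 0.152, adjusted p 0.000334 in limma). LDHB, the heart-type subunit and the more abundant one here, was at 995, 850.1 and 853 TPM against 1516, 1554 and 1602 TPM and fell as well (log2 change -0.80, SE 0.0740, adjusted p 0.000118). Summed lactate dehydrogenase TPM was 1228 ± 142 against 2356 ± 120, and the groups were separate. LDHA took 26.7% ± 2.35 of it in the knockdown and 33.8% ± 3.39 in the controls. By coverage per base the shares of LDHA were 15.8% ± 0.543 and 19.8% ± 1.81, a difference of -3.93 in place of -7.13 percentage points.

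SLC16A1 encodes MCT1, the lactate and pyruvate carrier of erythroid cells (ENSG00000155380, chromosome 1, 112911847 to 112957593, minus strand). It was at 40.8, 12.9 and 13.7 TPM in the knockdown libraries and at 134, 145 and 142 TPM in the controls. All 3 knockdown libraries were far below the controls, and replicate 1 stood above the other two. SLC16A1 fell by 2.79 on the log2 scale (SE 0.382, adjusted p 0.000644 in limma), and the value was -3.31 without MEN1 shRNA replicate 1. SLC16A3, the MCT4 carrier of strongly glycolytic cells, was at 19.7 ± 3.03 and 17.0 ± 1.77 TPM and did not pass (adjusted p 0.258), though it did without MEN1 shRNA replicate 1 (log2 change 0.32, adjusted p 0.0402). The share of SLC16A1 in the TPM of the pair was 71.6%, 37.2% and 39.5% in the knockdown and 87.7%, 89.6% and 90.2% in the controls. By coverage per base it was 84.3%, 58.4% and 61.8% against 94.1%, 95.5% and 95.2%. The share was lower with the MEN1 shRNA on both measures, but in knockdown replicates 2 and 3 SLC16A3 was the larger of the pair by TPM and SLC16A1 by coverage. BSG, the chaperone that brings both carriers to the surface, rose from 1129 ± 23.9 to 1514 ± 18.5 TPM (log2 change 0.42, adjusted p 0.00031).

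**Figure D4:**
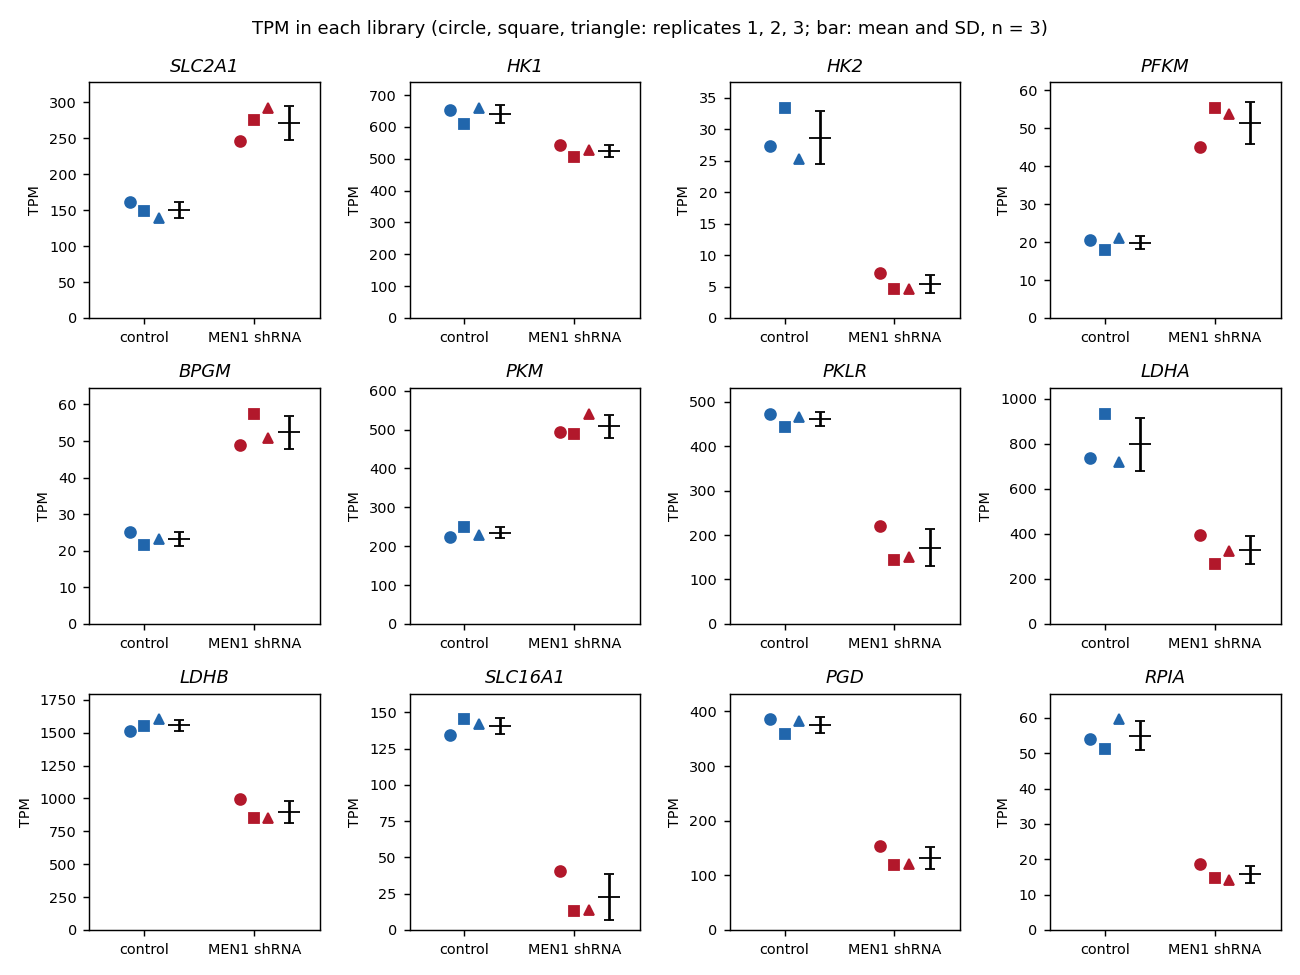
TPM (vertical axis, from 0) in each library for 12 genes; symbols mark replicates 1, 2 and 3, and bars the mean and SD (n = 3). In each of the 12 panels the control and MEN1 shRNA points do not overlap, with SLC2A1, PFKM, BPGM and PKM above the controls and the other 8 below.

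In the pentose phosphate pathway the largest falls were in an oxidative and an isomerase step. PGD, 6-phosphogluconate dehydrogenase, an NADPH-forming enzyme (ENSG00000142657, chromosome 1, 10398592 to 10420511), was at 154, 119 and 120.4 TPM in the knockdown libraries and at 385, 359 and 383 TPM in the controls. PGD fell to 34.9% of the control level (log2 change -1.52, SE 0.102, adjusted p 3.75e-05 in limma). RPIA, which forms ribose 5-phosphate (ENSG00000153574, chromosome 2, 88691673 to 88750929), was at 18.5, 14.5 and 14.1 TPM against 54.2, 51.3 and 59.6 TPM and fell to 28.6% of the control level (log2 change -1.75, SE 0.114, adjusted p 3.51e-05). In both genes MEN1 shRNA replicate 1 was the highest of its group and still far under the lowest control.

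The other pentose phosphate genes differed by far less. PGLS, the lactonase between the oxidative steps, was at 45.7 ± 3.52 against 56.4 ± 6.93 TPM (log2 change -0.29, adjusted p 0.044 in limma), with overlapping groups. Its adjusted p was above 0.05 without MEN1 shRNA replicate 2 (0.125) or 3 (0.115), without control replicate 1 (0.116) or 2 (0.137), and with FPKM (0.0666), median-of-ratios scaling (0.128), globin- and mitochondria-free TPM (0.0999), quantile normalization (0.132) or no filter on low values (0.124). TKT, transketolase, was at 444, 449 and 446 TPM against 409, 402 and 398 TPM and rose by a small amount (log2 change 0.15, SE 0.0462, adjusted p 0.0296). That call was lost under quantile normalization (0.0911) and without any 1 of MEN1 shRNA replicates 2 and 3 (0.0782 and 0.0712) or control replicates 1, 2 and 3 (0.0532, 0.079 and 0.0893). RPE, the epimerase, was at 43.4 ± 1.10 against 48.7 ± 1.37 TPM and just missed the threshold (log2 change -0.16, adjusted p 0.0521); it passed among genes with a mean TPM of 5 or more (0.0434). TALDO1, transaldolase, did not pass (391 ± 5.89 against 411 ± 17.5 TPM, log2 change -0.07), and its sign turned with median-of-ratios scaling. The 6 genes together summed to 1073 ± 29.9 TPM in the knockdown libraries and 1349 ± 35.0 TPM in the controls, without overlap.

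PGM2, which interconverts ribose 1-phosphate and ribose 5-phosphate, was at 18.7, 17.0 and 15.3 TPM in the knockdown libraries and at 40.2, 42.5 and 40.5 TPM in the controls. PGM2 fell to 41.4% of the control level (log2 change -1.23, SE 0.0863, adjusted p 4.36e-05 in limma). With PGM1 at no more than 0.406 TPM in any library, PGM2 made up 98.6% ± 0.936 and 99.5% ± 0.241 of the TPM of the pair.

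Summed over all 36 genes, TPM was 12682, 11313 and 11960 in the knockdown and 13637, 13946 and 13430 in the controls. The groups did not overlap, and the mean went from 13671 ± 259 to 11985 ± 685 TPM, or from 1.37% to 1.20% of all TPM. The log2 difference of the sums was -0.19, and -0.10 with median-of-ratios scaling. The lower glycolytic genes from GAPDH to pyruvate kinase overlapped between groups in their sum (6372 ± 293 against 6242 ± 22.4 TPM). The lactate genes showed the largest fall of a sum in TPM among upper glycolysis, lactate and pentose phosphate genes, from 2513 ± 124 to 1271 ± 155.

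Genes connected to the pathway came from 6 lists of other names. Over all tested genes 22.1% were higher and 31.5% lower. Of the other isoforms and side enzymes, 15 of 29 were tested, and 4 rose and 6 fell (median log2 change -0.20). PRPS2, which makes phosphoribosyl pyrophosphate from ribose 5-phosphate, fell from 94.1 ± 4.28 to 40.5 ± 7.93 TPM (log2 change -1.21, adjusted p 0.000183 in limma), whereas its paralog PRPS1 rose from 115 ± 2.10 to 143 ± 10.2 TPM (0.31, adjusted p 0.0048). Of 20 genes for the fate of pyruvate and the NADH shuttles, all tested, 11 fell and 1 rose (median -0.28). The mitochondrial aspartate aminotransferase GOT2 fell from 201 ± 4.09 to 106 ± 11.7 TPM (-0.93, adjusted p 9.59e-05), pyruvate carboxylase PC from 22.6 ± 0.684 to 12.8 ± 0.685 TPM (-0.78, adjusted p 0.000153), and the glycerol phosphate shuttle enzyme GPD2 rose from 13.1 ± 0.925 to 27.3 ± 2.56 TPM (1.00, adjusted p 0.000135).

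Regulators of the pathway were given next. Of 17 regulators, 15 were tested, 4 rose and 2 fell (median log2 change 0.09). MYC, a driver of glycolytic genes, fell from 232 ± 6.52 to 74.1 ± 15.4 TPM (log2 change -1.65, adjusted p 6.4e-05 in limma). EPAS1, the HIF-2α subunit, rose from 17.0 ± 1.18 to 52.2 ± 9.16 TPM (1.55, adjusted p 8.52e-05), and TXNIP, which restrains glucose uptake, rose from 252 ± 8.62 to 372 ± 46.5 TPM (0.55, adjusted p 0.00177). Of 14 hypoxia-inducible genes outside glycolysis, 11 were tested; 6 rose and 2 fell (median 0.46), and CA9 and ADM stayed under 1 TPM. NDRG1 (log2 change 1.02), BHLHE40 (1.05) and MXI1 (0.55) had the lowest adjusted p-values (9.62e-05, 0.000443 and 0.000474), while P4HA1 fell (-1.06, adjusted p 0.00119), as did BNIP3 (-0.56, adjusted p 0.0155), both named after their values were seen. Over all tested genes 22.1% rose and 31.5% fell.

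**Figure D5:**
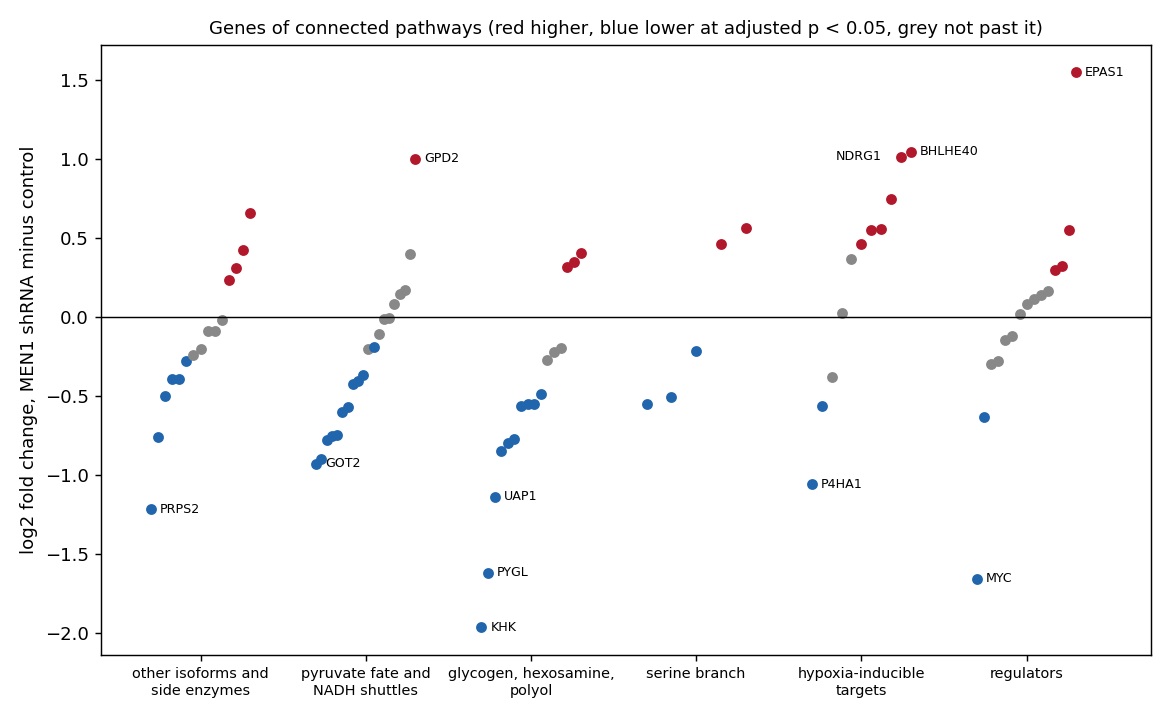
Log2 change (vertical axis, MEN1 shRNA minus control) of each tested gene in 6 lists of connected genes, sorted within a list; red and blue points passed an adjusted p of 0.05 in limma, grey did not, and changes beyond 0.9 are named. KHK has the lowest value of these lists (-1.96) and EPAS1 the highest (1.55).

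Some values carry the limits of gene-level counting. Of the 36 genes, 15 have named pseudogenes in the tables, 117 in all, 65 of them copies of GAPDH; their summed TPM was at most 8.51% of the parent gene in any library, reached by SLC2A3. How reads shared with such copies were divided is not stated. An overlapping gene at 2 TPM or more was found for 14 of the 36. Among genes on the opposite strand, SLC16A1-AS1 reached at most 4.38 TPM, HCN3 beside PKLR at most 7.23 TPM and SENP1 beside PFKM at most 25.7 TPM. CSNK1D, opposite SLC16A3, was at 67.9 to 74.6 TPM, above SLC16A3 itself at 15.4 to 21.8 TPM. ITGB3BP, opposite PGM1, was at 50.8 to 69.7 TPM. Without stated strand use their reads cannot be told apart from those of SLC16A1, PKLR, PFKM, SLC16A3 and PGM1. On the same strand, ATP7A overlapped PGK1 at 30.6 to 34.6 TPM, and an unnamed gene overlapped ALDOA at 27.7 to 56.5 TPM. Coverage per base over the 12 genes plotted by library ran from 2.73 for HK2 to 3298 for LDHB.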

How the data were processed

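Poly(A) RNA libraries, prepared with a directional kit per the labels' protocols, were compared between 3 MEN1 shRNA and 3 control shRNA samples, grouped by title. Per the submitters' processing notes, FastQC, Trimmomatic, STAR 2.7.1a, Picard 2.20.4 and StringTie 2.0.4 were used with hg38; annotation, parameters and use of strand: not given in the sources used here. The deposited TPM and FPKM are the authors' length-scaled values, and TPM sums to 1000000 per library. The deposited coverage signal was taken as the mean read depth per exonic base, and how it was averaged over the isoforms of a gene is not stated. In control replicate 2, 2 genes without a name held residues just below 0, which were set to 0. Coverage divided by FPKM in genes of 1 GENCODE v29 transcript gave the aligned bases; it matched within 0.1% in 94.9% to 95.4% of such genes.

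Genes at 1 TPM or more in at least 3 libraries were fitted with limma 3.58.1 (R 4.3.3; lmFit, eBayes with trend) on log2(TPM + 1), 2-sided, with p-values adjusted by Benjamini-Hochberg across the 14294 genes; all adjusted p-values come from this tool. Fold changes on this scale understate low genes. Shares and sums over genes have no test. The step was tested on simulated data in which far fewer genes changed than here, so that test does not cover a change of this breadth. Alternatives were a pseudocount of 0.1, no filter, a mean TPM of 5, FPKM, 3 other scalings, the replicate number as a block, an adjusted p of 0.01, and each library left out. The genes and lists were chosen with earlier results of these data known. Named were all 36 genes, MEN1, and up to 3 genes past the threshold per list with the lowest adjusted p; other list genes are named to complete a list's account or after their values were seen; only genes past the threshold with large changes, or whose paralogs moved apart, have full statistics. Python 3.11.15, pandas 2.3.3, NumPy 2.4.6 and matplotlib 3.10.9 were used. Promoters are from RefSeq, GRCh38.p14.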

Additional observations from a re-analysis of the deposited data

How the results depend on the processing

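Of 24 genes past the threshold, 18 passed under all 14 alternatives of the fit and 6 (PFKL, PFKFB2, PFKFB3, PGK1, PGLS and TKT) were lost under at least 1. Counts of the pathway's genes past the threshold ran from 18 at an adjusted p of 0.01 to 27, those of all genes from 5527 to 7674, those of the connected lists from 46 to 57 (54 as reported), and MEN1 from -2.57 to -2.22. Coverage in place of TPM moved the difference in share (MEN1 shRNA minus control, percentage points) to 13.0 for SLC2A1, -6.64 for HK2, 6.81 for PFKM, 0.429 for PFKFB2, 3.43 for ENO2 and 23.3 for PKM, against 8.00, -3.29, 14.2, 5.65, 2.04 and 41.2 with TPM, and LDHA went from -7.13 to -3.93 and SLC16A1 from -39.7 to -26.7; the cause was not tested. The log2 difference of the summed TPM went from -0.19 to -0.10 with median-of-ratios scaling, which moves the median of all genes from -0.07 to 0.0078. Signs turned for TPI1 with FPKM (0.014), median-of-ratios scaling (0.070) and TPM rescaled without globin and mitochondrial genes (0.050), and for TALDO1 with median-of-ratios scaling (0.017), none past the threshold; the cause was not tested. With 1 library left out, SLC2A3 ran from -0.0019 to 0.19 and TPI1 from -0.075 to 0.019, and 20 to 27 of the genes passed. With the replicate number as a block, 22 of the genes passed, 7012 of all genes and 50 of the connected lists; PFKL (adjusted p 0.0574) and TKT (0.0856) were lost. Deviations of libraries with the same number correlated at 0.017, -0.027 and -0.012, so the numbers were not taken as pairs. Depth was inferred from coverage, since the tables used here hold no counts, and HK3 and PGM1 were too low to test.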

Other observations

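Branches that draw on glycolytic intermediates were compared as well. Of 16 genes of glycogen, hexosamine and polyol metabolism, all tested, 10 fell and 3 rose (median log2 change -0.55), where 31.5% of all tested genes fell and 22.1% rose. The fructose kinase KHK fell from 13.4 ± 0.570 to 2.71 ± 0.271 TPM (log2 change -1.96, adjusted p 2.39e-05 in limma), the glycogen phosphorylase PYGL from 50.7 ± 4.35 to 15.9 ± 2.57 TPM (-1.62, adjusted p 5.23e-05), and UAP1, which makes the sugar donor of glycosylation, from 27.4 ± 1.85 to 11.97 ± 1.68 TPM (-1.14, adjusted p 0.000134). All 5 genes of the serine branch passed, 2 higher and 3 lower, where 53.6% of all tested genes passed. PSAT1, the serine aminotransferase, rose from 88.0 ± 5.43 to 122 ± 8.78 TPM (0.47, adjusted p 0.00139), while PSPH, the last enzyme of serine synthesis, fell from 19.1 ± 0.630 to 13.2 ± 0.271 TPM (-0.51, adjusted p 0.000861) and SHMT1, which turns serine into glycine, from 38.5 ± 2.72 to 26.1 ± 3.15 TPM (-0.55, adjusted p 0.00266).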
